A study of Gallus gallus with 48 samples.

Results

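The genes described here are 100 liver genes whose altitude differences ran in opposite directions in the 2 kinds of chicken. In each of them the mean of log2(FPKM + 1), where FPKM is a count of fragments scaled to transcript length and library depth, was higher in Tibetan chickens at 3300 m (TC) than in Tibetan chickens at 670 m (LTC), and lower in lowland chickens at 3300 m (HLC) than in lowland chickens at 670 m (LC). They were drawn from 17108 genes. Of these, 9928 reached 1 FPKM in at least 3 liver libraries and were not at 0 throughout a group, and 1175 of them had both directions. The 100 with the largest value of the smaller of the 2 differences were taken, after 2 genes had been left out by name. The members were chosen by the liver values of the 4 groups, so the TC to LTC and HLC to LC differences in liver are described without a test.

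RNA from liver, lung, heart and brain was sequenced in 48 libraries, 3 for each of the 4 groups in each tissue. Each label names the tissue and the altitude and carries a group code with a number. In its account of genomes the study uses TC, with a number, for clusters of Tibetan chickens, and a table there sets TC beside LC where Tibetan and other domestic chickens are compared. LTC and HLC were not found spelled out in the labels or that text, nor was LC as lowland. LTC is read here as Tibetan and LC and HLC as lowland chickens, from the letters of the code and the altitude beside them, and what the groups are called rests on that reading. The labels give no age, sex or time spent at each altitude. They do not say whether replicates were separate birds or whether tissues came from the same birds. The p-values here therefore describe spread among libraries whose source is not given. Libraries of the same group and number mostly went together between tissues, as described below.

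At high altitude, low oxygen pressure and cold act on the liver, an organ that makes plasma proteins and bile, stores glycogen and fat, and clears nutrients and toxins from the blood. When 2 populations are each measured in 2 environments, a gene can differ between populations, between environments, or in the way its level depends on environment in each population. The last case is called an interaction, and a crossing pattern, in which the direction itself differs, is its extreme form. Bulk tissue was measured, so fewer cells of a type and less RNA per cell cannot be told apart.

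Only 1 of the 100 genes has a symbol in the sources used here, IFI35 (ENSGALG00000002832, chromosome 27), an interferon-induced leucine zipper protein of the antiviral response. The other 99 are given by Ensembl ID, and no role is assigned to them. Markers with an ID numbered 4 of 83 and included no hepatocyte marker, so the liver label was not checked against hepatocytes. Of the 4, the neuronal STMN2 was at most 1.08 FPKM in TC livers, 0.369 in LTC, 0.0908 in HLC and 0.168 in LC. KRT19, a keratin of bile duct cells, ranged from 2.96 to 5.83 FPKM in TC livers against 2.24 to 3.02 in LTC livers, and from 1.98 to 2.84 in HLC livers against 1.20 to 1.88 in LC livers. BLNK, an adaptor of B cells, ranged from 0.907 to 3.71 FPKM in TC livers against 6.39 to 7.08 in LTC livers, and from 1.69 to 3.85 in HLC livers against 3.82 to 5.11 in LC livers. AMY2A, a pancreatic amylase, ranged from 0.0323 to 0.217 FPKM in TC livers against 0.523 to 1.07 in LTC livers, and from 0.303 to 0.342 in HLC livers against 0.267 to 1.30 in LC livers. TC and LTC livers did not overlap in BLNK and AMY2A, and HLC and LC livers did not overlap in KRT19. Their part in the results was not tested.

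Libraries of the same group and number went together between tissues, with 2 exceptions in heart. Genes other than the 100 were taken whose 12 values correlated above 0.65 among the 3 other tissues, and each library was set against the mean of those tissues. All 12 liver libraries correlated best with the same group and number (r between 0.40 and 0.818 over 74 genes), as did all 12 lung libraries (0.462 to 0.876, 44 genes) and all 12 brain libraries (0.334 to 0.77, 64 genes). In heart this held for 10 of 12 libraries (0.308 to 0.884, 123 genes). The heart library labelled LC replicate 2 had r = -0.08 with the same label in the other tissues and r = 0.574 with TC replicate 2. The heart library labelled TC replicate 2 had r = -0.09 with its own label and at most 0.374, with LTC replicate 2. These correlations are across genes, which are not independent replicates. Heart results are therefore given with and without these 2 libraries. Since tissues share deviations of single libraries, values in lung, heart and brain are not independent of the liver values that chose the genes. All genes are therefore not a like background for counts of members in those tissues.

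**Figure D1:**
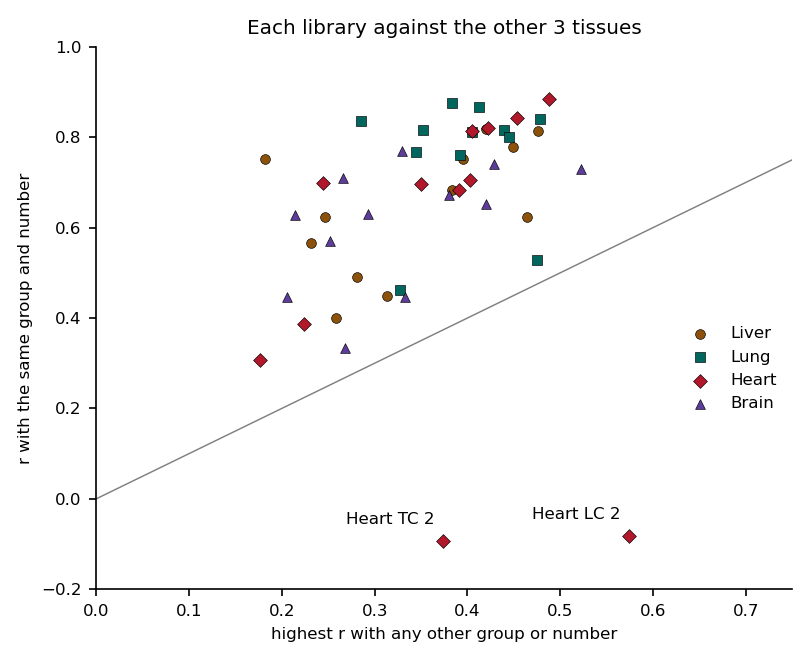
Correlation of each of the 48 libraries with the mean of the other 3 tissues, for the same group and number (vertical axis) and for the best of all other groups and numbers (horizontal axis); the grey line marks equal values. The libraries labelled heart TC replicate 2 (-0.09 against 0.374) and heart LC replicate 2 (-0.08 against 0.574) lie below the line, and the other 46 lie above it.

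In liver the 100 genes had a median TC minus LTC difference of 0.75 on the log2(FPKM + 1) scale (range 0.46 to 6.10) and a median HLC minus LC difference of -0.76 (range -4.15 to -0.46). Over all 9928 genes the medians were -0.36 and -0.15, so the members lay on the other side of the general shift in Tibetan chickens and further along it in lowland chickens. That shift depended on scaling, since the medians over all genes were -0.02 and 0.00445 after quantile normalization. Both directions together were found in 11.8% of the 9928 genes, and the converse, lower in TC and higher in HLC, in 18.8%. Under every setting tried but the stricter filter on low values, at least 94 of the members kept both directions. That filter left 80 members, all of which kept them. The lowest count, without TC replicate 3, was 94 of 99 members present. The rule chose the members on these liver values, so the counts are a description. Membership itself was less stable, with 56 of the 100 still among the 100 largest after quantile normalization and 67 after scaling to the upper quartile.

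**Figure D2:**
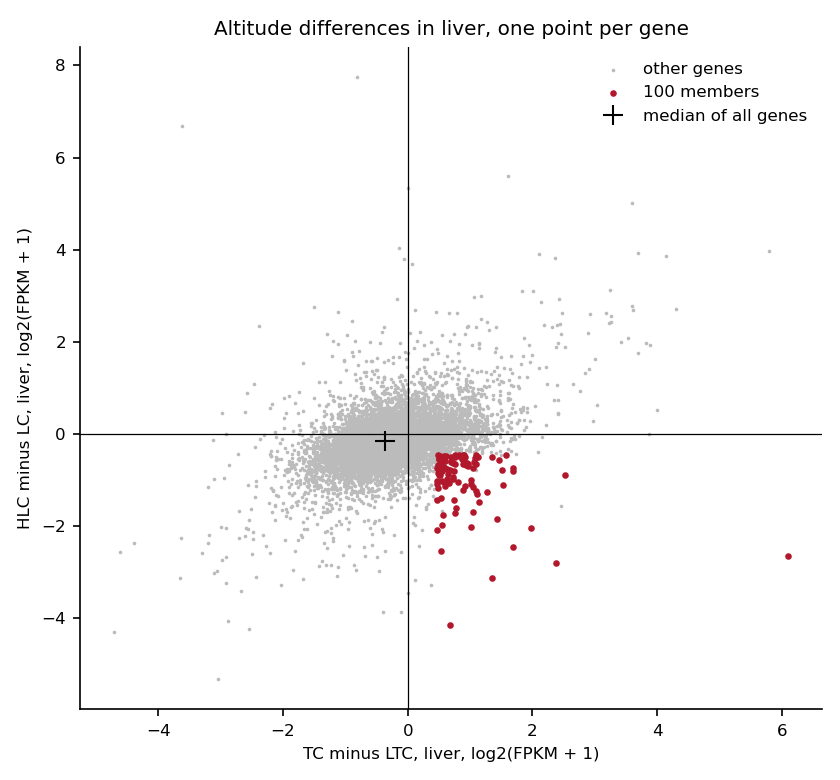
TC minus LTC (horizontal) against HLC minus LC (vertical) in liver, as differences of mean log2(FPKM + 1), 1 point per gene, with the 100 members in red and the median of all genes as a cross. The members fill the lower right corner, where the rule placed them, from 0.46 to 6.10 across and from -0.46 to -4.15 down.

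The rule leaves only TC or LC as the highest group of a member and only HLC or LTC as the lowest. The highest group mean was in TC in 69 genes (16.7% of the 9928 genes) and in LC in 31 (32.1%). The lowest was in HLC in 75 (20.4%) and in LTC in 25 (13.6%). All genes are not a like background for these counts, which are a description. The order TC, LC, LTC, HLC from high to low was the most frequent (52 genes), followed by LC, TC, LTC, HLC (16) and LC, TC, HLC, LTC (14). Of the rest, 10 genes had the order TC, LC, HLC, LTC, 7 had TC, LTC, LC, HLC and 1 had LC, HLC, TC, LTC. The most frequent order thus had lowland chickens at 3300 m lowest.

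Single libraries separated less cleanly than the means. All 3 TC livers were above all 3 LTC livers in 48 members (11.7% of the 9928 genes), and all 3 HLC livers were below all 3 LC livers in 68 (28.7%). Both separations held in 33 members (0.896%). The rule used these contrasts, so the counts are a description. All 3 TC livers were above all 3 HLC livers in 70 members (10.4%), and all 3 LTC livers were below all 3 LC livers in 41 (8.51%). The rule favours these separations too, since it places TC and LC high and LTC and HLC low. They are likewise a description.

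Among the libraries, TC replicate 3 stood highest and HLC replicate 1 lowest. The median deviation of the members from their own liver means was 0.27, 0.49 and 0.81 (log2) in TC replicates 1 to 3 and -0.28, -0.30 and -0.13 in LTC replicates 1 to 3. In lowland chickens it was -0.80, -0.54 and -0.39 in HLC replicates 1 to 3 and 0.26, 0.30 and 0.15 in LC replicates 1 to 3. The groups of a pair did not overlap in this median. TC replicate 3 was the highest TC library in 60 members (47% of all genes tested), and HLC replicate 1 was the lowest HLC library in 62 (50.9%). The members took between 1.11% and 1.57% of all FPKM in TC livers against 0.592% to 0.761% in LTC livers, and between 0.472% and 0.754% in HLC livers against 0.906% to 1.30% in LC livers. The rule used these libraries and directions, so the group medians and shares are a description.

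**Figure D3:**
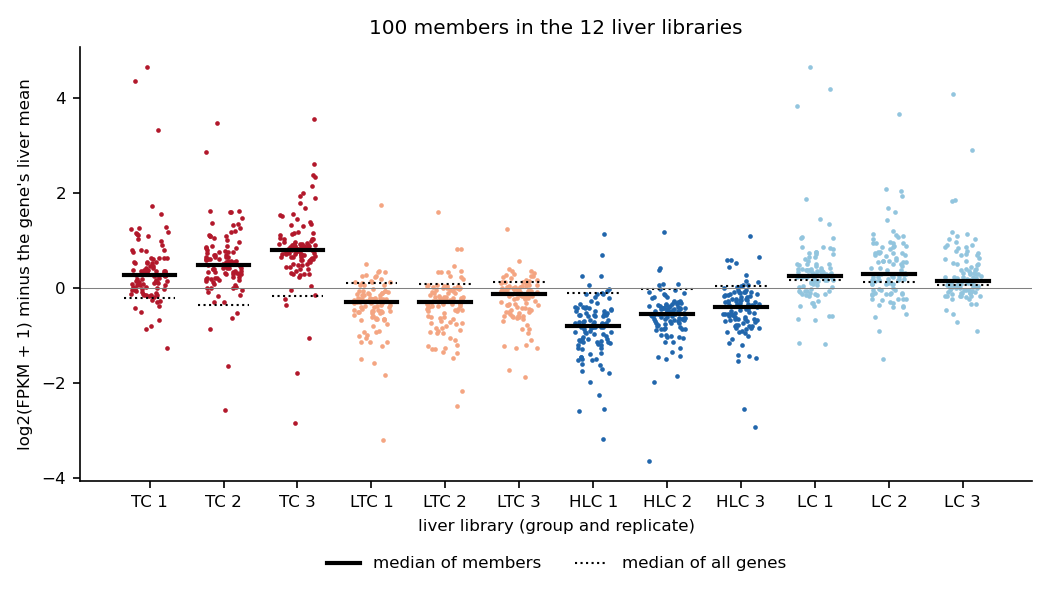
Deviation of each member's log2(FPKM + 1) from its mean over the 12 liver libraries, by library, with the median of the 100 members (solid bar) and of all genes (dotted bar). Member medians lie between 0.27 and 0.81 in TC and between -0.30 and -0.13 in LTC, and between -0.80 and -0.39 in HLC and 0.15 and 0.30 in LC.

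The largest member, ENSGALG00000027874, had 531, 232 and 248 FPKM in TC livers against 1.28, 3.62 and 7.99 in LTC livers, a difference of 6.10 on the log2 scale. In lowland livers it had 5.79, 4.32 and 1.75 FPKM in HLC against 76.6, 16.6 and 16.9 in LC, a difference of -2.65. Neither pair of groups overlapped, and every TC library was above every library of the other 3 groups.

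The third largest, ENSGALG00000021627, was among the more abundant members. It had 552, 594 and 1214 FPKM in TC livers against 295, 99.9 and 215 in LTC livers, and 81.0, 115 and 39.2 in HLC livers against 148, 494 and 358 in LC livers. The differences were 1.99 and -2.04, and neither pair of groups overlapped.

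ENSGALG00000027374 had 14.9, 14.2 and 20.3 FPKM in TC livers against 6.73, 5.41 and 8.62 in LTC livers, and 5.98, 7.41 and 7.03 in HLC livers against 16.2, 21.4 and 26.0 in LC livers. ENSGALG00000020840 had 10.9, 19.9 and 13.1 FPKM in TC livers against 4.91, 5.29 and 3.01 in LTC livers, and 2.58, 2.83 and 2.45 in HLC livers against 10.7, 5.24 and 5.56 in LC livers. Both genes separated both pairs of groups, with differences of 1.15 and -1.49 for ENSGALG00000027374 and of 1.52 and -1.11 for ENSGALG00000020840.

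Others of the 12 largest rested on fewer libraries. ENSGALG00000016456 (1.69 and -2.45) had 13.9, 10.5 and 51.2 FPKM in TC livers against 3.33, 3.65 and 12.2 in LTC livers, and 6.93, 5.51 and 3.67 in HLC livers against 7.64, 164 and 26.8 in LC livers. ENSGALG00000026125 (1.05 and -1.69) had 19.2, 10.98 and 79.6 FPKM in TC livers against 8.91, 9.45 and 20.3 in LTC livers, and 20.4, 16.2 and 6.46 in HLC livers against 21.2, 91.8 and 43.5 in LC livers. In both genes TC replicate 3 and LC replicate 2 were the highest libraries of their groups, and TC overlapped LTC.

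ENSGALG00000027864 (1.43 and -1.86) had 28.6, 14.1 and 38.7 FPKM in TC livers against 5.63, 8.27 and 13.7 in LTC livers, and 3.42, 5.73 and 6.01 in HLC livers against 11.1, 42.0 and 18.1 in LC livers. ENSGALG00000015297 (1.09 and -1.25) had 6.73, 6.17 and 10.7 FPKM in TC livers against 2.75, 2.79 and 3.74 in LTC livers, and 4.20, 2.65 and 3.33 in HLC livers against 4.25, 18.3 and 9.81 in LC livers. Both separated their groups in both pairs, the second by a gap of 4.20 to 4.25 FPKM between HLC and LC.

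ENSGALG00000017184 (1.28 and -1.26) was expressed at a low level, with 4.70, 4.08 and 3.38 FPKM in TC livers against 1.33, 0.146 and 2.32 in LTC livers, and 0.221, 0.671 and 0.884 in HLC livers against 4.80, 2.16 and 1.88 in LC livers. ENSGALG00000015192 (1.11 and -1.30) had 5.89, 32.1 and 25.8 FPKM in TC livers against 5.23, 10.97 and 7.17 in LTC livers, and 4.93, 6.50 and 7.59 in HLC livers against 14.9, 17.6 and 18.4 in LC livers. The first separated both pairs, whereas TC replicate 1 of the second fell within the LTC range.

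The remaining 2 of the 12 largest varied more between libraries of a group than between groups. ENSGALG00000004772 (2.37 and -2.81) had 62.2, 0.0551 and 6.54 FPKM in TC livers against 0.743, 0.112 and 0.869 in LTC livers, and 0.0593, 7.16 and 7.51 in HLC livers against 114, 3.71 and 45.8 in LC livers. ENSGALG00000027431 (1.35 and -3.12) had 70.0, 0.111 and 0 FPKM in TC livers against 0.577, 1.07 and 0.444 in LTC livers, and 0, 0.568 and 1.17 in HLC livers against 86.5, 4.05 and 4.11 in LC livers. The TC mean of ENSGALG00000027431 came from TC replicate 1 alone.

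The members just inside the limit were ENSGALG00000019445, ENSGALG00000028204 and ENSGALG00000000629, whose smaller difference was 0.462, 0.460 and 0.458. Just outside were MDK (ENSGALG00000008367), which encodes the heparin-binding growth factor midkine, ENSGALG00000002263 and ENSGALG00000010139, with 0.455, 0.453 and 0.451. ENSGALG00000000629 had 55.7, 64.8 and 64.0 FPKM in TC livers against 39.7, 41.3 and 51.1 in LTC livers, and 34.5, 34.98 and 38.5 in HLC livers against 53.0, 42.7 and 54.4 in LC livers. MDK had 10.1, 17.3 and 11.4 FPKM in TC livers against 7.21, 7.13 and 5.04 in LTC livers, and 4.50, 8.27 and 5.97 in HLC livers against 10.2, 8.50 and 7.56 in LC livers. The limit therefore falls in a run of close values, and its place in that run is arbitrary.

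The members were expressed at a higher level in liver than other genes and varied more between libraries of a group. Their median level was 13.5 FPKM, against 5.96 for all 9928 genes. Their median within-group SD was 0.443 (log2), against 0.224 for all genes tested. A value of 0 in at least 1 liver library was found in 7 members (1.18% of the 9928 genes), and 6 members had a liver median under 1 FPKM (5.79%). A rule that takes the largest differences favours variable genes, and the pseudocount of 1 shrinks the differences of low genes. The SD and the level are therefore a description.

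The highest tissue median was in liver for 24 members (14.8% of the 9928 genes), in lung for 56 (48.8%), in heart for 13 (10.3%) and in brain for 7 (26.2%). Beside all genes, fewer members were thus highest in brain and more in liver, and the shares in lung and heart were near those of all genes. The pseudocount shrinks differences of genes low in liver, so the rule favours genes expressed there. These shares are a description. All 4 tissue medians reached 1 FPKM in 66 members (81.7%). The median level of the members was 13.5 FPKM in liver, 19.6 in lung, 4.75 in heart and 5.69 in brain.

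In 13 members the liver median was at least 5 times that of the next tissue (4.65% of the 9928 genes), and 4 were at 1 FPKM or more in liver and below it in the other 3 tissues (2.43%). The rule favours genes expressed in liver, so these counts are likewise a description. The most abundant of the 13, picked after their values were seen, were ENSGALG00000012034 (722 FPKM in liver against 20.5 in lung, 23.9 in heart and 12.9 in brain) and ENSGALG00000000893 (539 FPKM in liver against 0.342, 0.212 and 0.188). ENSGALG00000000893 had 585, 594 and 945 FPKM in TC livers against 411, 535 and 543 in LTC livers, and 367, 296 and 341 in HLC livers against 415, 1166 and 897 in LC livers. ENSGALG00000012034 had 824, 891 and 1075 FPKM in TC livers against 520, 521 and 620 in LTC livers, and 291, 312 and 927 in HLC livers against 517, 858 and 999 in LC livers. Both pairs of groups were separated in the first, whereas HLC replicate 3 of the second lay among the LC values.

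By contrast, ENSGALG00000026970 was abundant in every tissue, with medians of 737 FPKM in liver, 1518 in lung, 408 in heart and 102 in brain. In liver it had 793, 505 and 2130 FPKM in TC against 680, 574 and 818 in LTC, and 156, 224 and 341 in HLC against 883, 1196 and 885 in LC. Its TC and LTC values overlapped, and HLC was below LC in all libraries.

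The liver contrast that the rule did not use is the mean difference between the 2 kinds of chicken, (TC + LTC) minus (HLC + LC) over 2. Higher or lower in Tibetan livers here means on the mean over both altitudes, not at each altitude. In this contrast 14 of 100 members passed the threshold (adjusted p under 0.05 in limma, Benjamini-Hochberg over all genes tested), against 11% of the 9944 genes tested. Of the 14, 13 were higher in Tibetan chickens (2.39% of all genes) and 1 was lower (8.58%). The contrast uses the same liver libraries as the rule, under which TC is lowest in 0 members and in 57.0% of the 9928 genes, so all genes are not a like background for these directions. The difference was above 0 in 73 members, in 71.8% of the other 1079 genes with the liver pattern and in 34.4% of all genes, with medians of 0.30, 0.13 and -0.10. Of the 1079 genes, 7.51% passed as higher and 0.463% as lower. The direction is therefore shared by genes with the liver pattern and is no result about the members. The number past the threshold lay between 4 and 26 when single libraries were left out, 4 without LTC replicate 2 and 26 without TC replicate 1. The share of all genes in those settings is not given here, so this range is no result about the members.

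Only 3 of the 14 passed under all 19 alternatives. ENSGALG00000004009 had 21.3, 26.4 and 33.0 FPKM in TC livers and 21.3, 16.3 and 16.8 in LTC livers, against 8.11, 11.5 and 10.9 in HLC livers and 18.3, 13.2 and 12.8 in LC livers. It was higher in Tibetan chickens by 0.80 (log2, standard error 0.14, adjusted p = 0.0122 in limma). Every TC library was above all 6 lowland libraries, and LTC overlapped LC.

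ENSGALG00000029107 had 33.1, 41.6 and 46.2 FPKM in TC livers and 23.0, 26.3 and 28.3 in LTC livers, against 18.9, 17.9 and 14.2 in HLC livers and 27.7, 19.7 and 25.3 in LC livers, a difference of 0.65 (standard error 0.12, adjusted p = 0.0143). ENSGALG00000003213 had 7.76, 9.09 and 9.21 FPKM in TC livers and 3.76, 3.97 and 4.47 in LTC livers, against 2.01, 2.29 and 3.67 in HLC livers and 6.30, 4.14 and 3.92 in LC livers, a difference of 0.63 (standard error 0.13, adjusted p = 0.0199). In both genes the LTC and LC livers overlapped, and the HLC livers were the lowest.

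IFI35 had 40.3, 51.1 and 66.4 FPKM in TC livers and 29.3, 28.7 and 28.3 in LTC livers, against 18.6, 23.6 and 25.4 in HLC livers and 29.5, 39.7 and 27.3 in LC livers. It was higher in Tibetan chickens by 0.52 (standard error 0.14, adjusted p = 0.0382), and its TC livers did not overlap those of any other group. The call was lost in 10 of 19 alternatives (adjusted p between 0.0162 and 0.0822), among them the removal of HLC replicate 1 or 2, of LC replicate 1 or 3, of TC replicate 2 or 3 and of each LTC library. Outside liver no test of IFI35 passed the threshold. In lung it had 39.6, 35.8 and 41.9 FPKM in TC against 67.2, 48.9 and 46.5 in LTC, and 34.97, 71.7 and 43.8 in HLC against 48.5, 52.0 and 44.1 in LC. The TC lungs were thus below the LTC lungs, the reverse of liver.

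ENSGALG00000017380, with 639, 897 and 754 FPKM in TC livers and 363, 375 and 420 in LTC livers, against 334, 301 and 230 in HLC livers and 526, 404 and 456 in LC livers, was higher in Tibetan chickens by 0.58 (standard error 0.13, adjusted p = 0.022). The call was lost without LC replicate 2, LTC replicate 2 or TC replicate 2 and after quantile normalization (0.0135 to 0.0714 over the alternatives). The other 8 genes higher in Tibetan livers were ENSGALG00000027874 (1.71), ENSGALG00000021627 (1.33), ENSGALG00000000839 (1.04), ENSGALG00000020840 (0.75), ENSGALG00000026842 (0.73), ENSGALG00000011899 (0.73), ENSGALG00000003063 (0.57) and ENSGALG00000007926 (0.55). Their adjusted p lay between 0.0266 and 0.0499. Each of these 8 calls was lost without TC replicate 2 and without at least 1 LTC and 1 LC library, with adjusted p up to 0.106.

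The 1 member lower in Tibetan livers, ENSGALG00000015134, was at 0, 2.78 and 0.159 FPKM in TC livers and 0.0828, 0 and 0 in LTC livers, against 0.0808, 0 and 0.0748 in HLC livers and 33.3, 3.61 and 40.1 in LC livers. All 3 LC livers were above the other 9 libraries, of which only TC replicate 2 exceeded 1 FPKM, and its median was 0 FPKM in lung, heart and brain. The difference of -1.77 (standard error 0.49, adjusted p = 0.0422) was lost in 15 of 19 alternatives (0.00749 to 0.095). This gene met the filter on low values only through the LC livers and TC replicate 2, so a difference was built into its being tested, and the call is a description. The single-library losses were without any HLC or LTC replicate, LC replicate 1 or 3, or TC replicate 1 or 3.

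In lung, 89 members were tested and 11 fell under the filter on low values. The liver pattern did not carry over to most of them. TC was above LTC and HLC below LC in 18 of 89 (20.2%, against 12.3% of the 11601 genes tested), and the reverse pattern was found in 17 (19.1%, against 23.6%). The median TC minus LTC difference was -0.11 (-0.09 for all genes), and the median HLC minus LC difference was -0.11 (0.00139 for all genes).

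Between TC and LTC lungs 19 of 89 members passed the threshold (12.1% of all genes), 15 of them higher in TC (3.46%) and 4 lower (8.66%). Between HLC and LC lungs 8 passed (3.89%), 3 higher in HLC and 5 lower (1.37% and 2.52%). Deviations of same-numbered libraries from their group means went together between liver and lung (r = 0.0793 to 0.462 over the 4 groups). All genes are therefore not a like background for these counts, which are a description. The number for TC minus LTC lay between 7 and 20 when single libraries were left out, 7 without LTC replicate 2, 8 without TC replicate 2, 11 without LTC replicate 3 or TC replicate 1 and 12 without TC replicate 3. For HLC minus LC it lay between 5, without LC replicate 1, and 10. As the share of all genes in those settings is not given here, these ranges are no result about the members.

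The largest difference between TC and LTC lungs that held under all 19 alternatives was that of ENSGALG00000007082. It had 55.5, 74.5 and 76.9 FPKM in TC lungs against 21.6, 14.5 and 18.5 in LTC lungs, and was higher in TC by 1.87 (standard error 0.21, adjusted p = 0.00138). ENSGALG00000027864 had 112, 121 and 106 FPKM in TC lungs against 36.0, 32.1 and 35.7 in LTC lungs (1.68, standard error 0.18, adjusted p = 0.00115). In both genes the lung groups were far apart relative to their spread, and the direction was that of liver.

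ENSGALG00000015297 had 78.2, 51.8 and 64.9 FPKM in TC lungs against 23.7, 17.0 and 21.6 in LTC lungs (1.59, standard error 0.22, adjusted p = 0.00283). ENSGALG00000006245 had 4.60, 4.38 and 3.78 FPKM in TC lungs against 1.99, 1.11 and 1.71 in LTC lungs (1.02, adjusted p = 0.00356). ENSGALG00000012173 and ENSGALG00000015144 were higher in TC lungs by 0.70 each (adjusted p = 0.0107 and 0.00529), and ENSGALG00000000529 was lower by 0.79 on the log2 scale, with 15.8, 19.6 and 23.4 FPKM in TC lungs against 36.5, 34.9 and 31.7 in LTC lungs (adjusted p = 0.0109). In none of these genes did the TC and LTC lungs overlap, and the call of each held under all 19 alternatives.

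The other 12 calls between TC and LTC lungs were each lost without at least 1 single library. They were higher in TC for ENSGALG00000027874 (2.42), ENSGALG00000026415 (2.27), ENSGALG00000002260 (1.40), ENSGALG00000022696 (0.94), ENSGALG00000017589 (0.88), ENSGALG00000027069 (0.77), ENSGALG00000011404 (0.71), ENSGALG00000027374 (0.67) and ENSGALG00000013725 (0.41). They were lower in TC for ENSGALG00000028946 (-1.19), ENSGALG00000000158 (-0.70) and ENSGALG00000029107 (-0.53). All 12 were lost without LTC replicate 2, for ENSGALG00000026415 this was the only library to do so, and its adjusted p over the alternatives ran from 0.00396 to 0.0555. Leaving out LTC replicate 2 also weakened calls that held, such as ENSGALG00000027864 (adjusted p in limma from 0.00115 to 0.00901). As the share of all genes lost in that setting is not given here, the 12 losses are no result about the members. ENSGALG00000029107 thus passed in 2 unlike contrasts, higher in Tibetan than lowland livers on the mean over altitudes and lower in TC than LTC lungs. Its TC to LTC direction in lung was the reverse of that in liver. The lung call was also lost after quantile normalization and upper quartile scaling.

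Between HLC and LC lungs the largest difference was in ENSGALG00000026173, which had 118, 242 and 162 FPKM in HLC lungs against 1239, 644 and 535 in LC lungs (-2.17, standard error 0.33, adjusted p = 0.0069). ENSGALG00000023193 had 1.73, 2.19 and 2.26 FPKM in HLC lungs against 5.57, 5.99 and 4.25 in LC lungs (-1.03, adjusted p = 0.00815). ENSGALG00000010738 was higher in HLC lungs, with 45.1, 33.5 and 42.1 FPKM against 21.7, 20.2 and 17.6 in LC lungs (0.98, standard error 0.12, adjusted p = 0.00252). The direction of the first 2 was that of liver, and that of ENSGALG00000010738, which differed by -1.77 between HLC and LC livers, was the reverse.

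ENSGALG00000012173 was higher at 3300 m in both kinds of chicken in lung. It had 82.2, 83.4 and 73.5 FPKM in HLC lungs against 45.0, 33.8 and 44.7 in LC lungs (0.95, standard error 0.14, adjusted p = 0.00498), beside 75.7, 89.8 and 73.5 in TC lungs against 52.1, 50.8 and 42.7 in LTC lungs. In liver the same gene had 50.0, 83.1 and 92.3 FPKM in TC against 39.3, 45.7 and 67.0 in LTC, and 25.9, 40.4 and 53.4 in HLC against 57.7, 101 and 52.9 in LC. The lung groups did not overlap at either comparison, whereas TC overlapped LTC and HLC overlapped LC in liver. The 4 calls for ENSGALG00000026173, ENSGALG00000023193, ENSGALG00000010738 and ENSGALG00000012173 held under all 19 alternatives.

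ENSGALG00000000529 was lower at 3300 m in both kinds of chicken, with 16.1, 20.1 and 16.3 FPKM in HLC lungs against 35.9, 32.9 and 26.9 in LC lungs (-0.83, adjusted p = 0.0151, up to 0.0649 without LC replicate 1, and lost without HLC replicate 1 as well, with 0.0107 to 0.0649 over the alternatives). The other 3 calls between HLC and LC lungs were ENSGALG00000015235 (-2.13), ENSGALG00000025948 (-0.93) and ENSGALG00000012034 (0.61). ENSGALG00000015235 was lost without LC replicate 1 or any HLC replicate, ENSGALG00000025948 without any HLC, LC or LTC replicate, and ENSGALG00000012034 without replicates 2 or 3 of HLC or LC. ENSGALG00000012034, abundant in liver, had 28.3, 36.5 and 32.7 FPKM in HLC lungs against 23.4, 21.0 and 18.3 in LC lungs, the reverse of its liver direction.

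**Figure D4:**
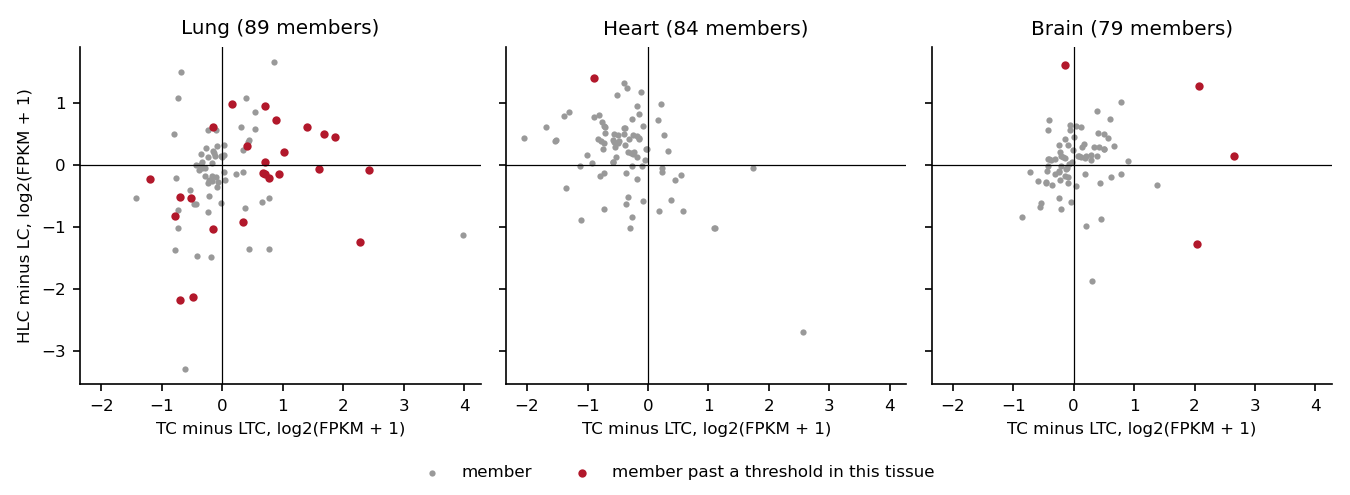
TC minus LTC (horizontal) against HLC minus LC (vertical), as differences of mean log2(FPKM + 1), for the members tested in lung (89), heart (84) and brain (79); red points passed a threshold in that tissue and all 12 libraries of each tissue were used. The liver pattern is the lower right part of each panel, which holds 18 members in lung, 11 in heart and 10 in brain.

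The interaction was taken as the TC minus LTC difference less the HLC minus LC difference. In lung it passed the threshold in 2 of 89 members (0.509% of all genes), both above 0 (0.25%). ENSGALG00000015297 differed between TC and LTC as given above and had 52.8, 35.7 and 35.5 FPKM in HLC lungs against 34.96, 55.0 and 39.9 in LC lungs, an interaction of 1.66 (standard error 0.31, adjusted p = 0.0441). ENSGALG00000026415 had 10.7, 3.75 and 5.43 FPKM in TC lungs against 0.656, 0.217 and 0.579 in LTC lungs, and 4.09, 0.215 and 0.971 in HLC lungs against 3.53, 4.86 and 5.08 in LC lungs, an interaction of 3.51 (standard error 0.64, adjusted p = 0.0433). Both calls were lost in most alternatives (13 and 14 of 19, adjusted p between 0.0278 and 0.132 and between 0.00618 and 0.132), among them without any LTC or TC library or replicate 2 or 3 of HLC or LC, and for ENSGALG00000026415 also without LC replicate 1. For ENSGALG00000026415 only the TC and LC lungs and HLC replicate 1 reached 1 FPKM. It thus met the filter mainly through the groups that raise the interaction. For the difference between Tibetan and lowland lungs no member passed in limma (0.0431% of all genes), with 10 of 89 under an unadjusted p of 0.05 (11.2%, against 14.7% of all genes).

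In brain, 79 members were tested. The liver pattern was found in 10 (12.7%, against 20.5% of the 11614 genes tested) and the reverse in 19 (24.1%, against 24.3%). Between TC and LTC brains 3 members passed the threshold (0.379% of all genes), each higher in TC (0.319%). ENSGALG00000026415 had 4.12, 3.51 and 4.79 FPKM in TC brains against 0.302, 0.113 and 0.300 in LTC brains (2.05, standard error 0.25, adjusted p = 0.00733). The call held in all alternatives but that without TC replicate 3 (0.00245 to 0.0719), and its adjusted p was 0.0333 with the replicate number as a block.

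ENSGALG00000027874 had 14.6, 16.03 and 24.003 FPKM in TC brains against 1.52, 1.69 and 2.94 in LTC brains (2.65, standard error 0.41, adjusted p = 0.0245). ENSGALG00000010071, a gene highest in liver, had 2.46, 5.79 and 4.03 FPKM in TC brains against 0.239, 0 and 0.269 in LTC brains (2.08, standard error 0.30, adjusted p = 0.0198). The groups did not overlap in either gene. With the replicate number as a block shared by all 4 groups, the adjusted p in limma was 0.0827 for ENSGALG00000027874 and 0.0659 for ENSGALG00000010071. This left 1 of the 3 calls. The block is not a paired test of TC and LTC, since other groups did not share these deviations (r = -0.655 for TC and HLC replicate 1). Over the alternatives the adjusted p ran from 0.0043 to 0.135 and from 0.0145 to 0.0963. The first was lost without any TC or LTC replicate or LC replicate 2, and the second without any LTC replicate or TC replicate 2 or 3.

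Between HLC and LC brains ENSGALG00000012173 passed, higher in HLC (0.146% of all genes passed and 0.138% were higher), with 13.4, 12.4 and 9.95 FPKM in HLC brains against 2.74, 2.73 and 4.28 in LC brains (1.61, standard error 0.19, adjusted p = 0.00804). It was lost without LC replicate 2 (0.00709 to 0.0587 over the alternatives). The brain interaction passed in ENSGALG00000026415 (0.0344% of all genes, 0.0172% above 0). This gene had 1.72, 0.347 and 0.739 FPKM in HLC brains against 2.44, 3.83 and 4.43 in LC brains, and the interaction was 3.32 (standard error 0.35, adjusted p = 0.00908, lost without LC replicate 2, 0.00101 to 0.0541 over the alternatives). Only the TC and LC brains and HLC replicate 1 reached 1 FPKM. The gene thus met the filter mainly through the groups that raise the interaction, so its being tested was not independent of that sign. For the difference between Tibetan and lowland brains no member passed in limma (0.00861% of all genes), with 5 of 79 under an unadjusted p of 0.05 (6.33%, against 4.53% of all genes).

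In heart, 84 members were tested. With all 12 libraries the liver pattern was found in 11 (13.1%, against 8.04% of the 10376 genes tested) and the reverse in 54 (64.3%, against 63.8%). Without the libraries labelled TC replicate 2 and LC replicate 2, the liver pattern was found in 10 (11.9%, against 6.68%) and the reverse in 37 (44%, against 55.2%).

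With all 12 heart libraries, no member passed between TC and LTC in limma (0% of all genes), with 19 of 84 members under an unadjusted p of 0.05 (22.6%, against 18.3% of all genes). Without the 2 libraries 3 of 84 passed (0.861%). ENSGALG00000007082 had 68.0 and 109 FPKM in TC hearts, with 12.9 in the library left out, against 13.6, 10.4 and 16.02 in LTC hearts. It was higher in TC by 2.62 (standard error 0.26, adjusted p = 0.00831 in limma), the TC to LTC direction of liver and lung. Its HLC minus LC difference without the 2 libraries was 0.54, opposite in sign to liver, and did not pass. ENSGALG00000007210 had 68.3 and 66.6 FPKM in TC hearts, with 105 in the library left out, against 134, 138 and 147 in LTC hearts (-1.04, adjusted p = 0.0294). ENSGALG00000000443 had 0.253 and 0.0893 FPKM in TC hearts, with 13.6 in the library left out, against 4.39, 14.5 and 15.8 in LTC hearts (-3.26, adjusted p = 0.0226). ENSGALG00000007210 and ENSGALG00000000443 were thus the reverse of their TC to LTC direction in liver. In each of the 3 genes the heart library labelled TC replicate 2 lay in or nearer to the LTC range than the other TC hearts. With all 12 libraries their adjusted p was 0.187, 0.110 and 0.233.

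No member passed between HLC and LC hearts in limma with 12 libraries (0.0386% of all genes) or with 10 (0.242%). Under an unadjusted p of 0.05 were 14 of 84 members with 12 libraries (16.7%, against 12.7% of all genes) and 15 with 10 (17.9%, against 15.6%). The interaction passed in 1 member with all 12 libraries, below 0 (2.79% of all genes, 2.6% below 0), and in none with 10 (0.406%), where 26 of 84 were under an unadjusted p of 0.05 (31%, against 22.2% of all genes). ENSGALG00000028204 had 96.6, 52.4 and 121 FPKM in TC hearts against 122, 182 and 182 in LTC hearts, and 334, 484 and 306 in HLC hearts against 130, 113 and 185 in LC hearts. Its interaction was -2.29 (standard error 0.45, adjusted p = 0.036), opposite in sign to liver, and -1.79 (adjusted p = 0.0653) without the 2 libraries. With 12 libraries the call was also lost without HLC replicate 1 or 2, LC replicate 2, TC replicate 3 or any LTC replicate (0.0249 to 0.123 over the alternatives). Without TC replicate 2 alone 7 members passed, and the share of all genes in that setting is not given here. For the difference between Tibetan and lowland hearts no member passed in limma with 12 libraries (0.00964% of all genes) or with 10 (0.00967%). Under an unadjusted p of 0.05 were 18 of 84 members with 12 libraries (21.4%, against 14.2% of all genes) and 19 with 10 (22.6%, against 14.8%).

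Of 73 members tested in all 4 tissues, 51 showed the liver pattern in no other tissue (69.9%), 13 in 1 (17.8%), 7 in 2 (9.59%) and 2 in 3 (2.74%). Among 953 other genes with the liver pattern the shares were 74.4%, 19.5%, 5.25% and 0.839%, so most members, like most of those genes, had the pattern in liver alone. With 10 heart libraries the members' counts were 52, 13, 4 and 4, and 0.841% of 951 other genes had the pattern in every tissue. TC was above LTC in all 4 tissues in 7 members (9.59%, against 2.82% of 8720 genes tested in all 4), and HLC was below LC in all 4 in 10 (13.7%, against 6.27%). With 10 heart libraries these counts were 15 (20.5%, against 3.67% of 8708 genes) and 14 (19.2%, against 7.63%). The rule fixed the liver part of each direction for all members, which the other genes do not share. The members with the pattern in every tissue were ENSGALG00000026415 and ENSGALG00000002614, joined by ENSGALG00000004772 and ENSGALG00000003063 with 10 heart libraries.

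ENSGALG00000026415 was low in liver, with 1.03, 0.567 and 0.597 FPKM in TC against 0.188, 0.115 and 0.248 in LTC, and 0.175, 0 and 0 in HLC against 0.968, 1.998 and 2.55 in LC. In heart it had 2.92, 0.188 and 2.58 FPKM in TC against 0.189, 0.171 and 0.258 in LTC, and 1.65, 0.216 and 0.272 in HLC against 2.87, 3.04 and 1.18 in LC. In liver neither pair of groups overlapped. Only TC replicate 1 and LC replicates 2 and 3 reached 1 FPKM there. The gene thus met the liver filter only through the groups that the rule places high, and its liver values are a description. In heart TC replicate 2, 1 of the 2 libraries in doubt, was the only TC library at the LTC level.

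In liver and lung all TC libraries of ENSGALG00000002614 were above all LTC and HLC libraries. TC overlapped LC, HLC overlapped LC, and single libraries stood out within LTC, HLC and LC. In liver it had 8.39, 7.65 and 16.2 FPKM in TC against 0, 0.105 and 5.71 in LTC, and 0, 0 and 0.930 in HLC against 0.241, 0 and 9.003 in LC. In lung it had 58.4, 28.3 and 66.2 FPKM in TC against 0.0431, 0.627 and 16.8 in LTC, and 0, 0 and 6.58 in HLC against 1.40, 0 and 32.4 in LC. In both tissues replicate 3 was the highest library of LTC, HLC and LC, and the other libraries of these groups were at most 1.40 FPKM. In heart the library labelled TC replicate 2 had 0.0518 FPKM beside 6.41 and 9.85 in the other TC hearts, and LC replicate 2 had 4.21 FPKM where it was listed at 0 in liver, lung and brain.

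ENSGALG00000004772 and ENSGALG00000027431, described above for liver, also differed widely between libraries of a group. ENSGALG00000004772 had 54.0, 0 and 12.1 FPKM in TC lungs against 21.0, 0.0607 and 11.5 in LTC lungs, and 2.76, 271 and 102 in HLC lungs against 167, 62.9 and 163 in LC lungs, and in brain TC replicate 2 and LTC replicate 2 were listed at 0. ENSGALG00000027431 had 104, 0 and 0 FPKM in TC lungs against 7.26, 7.49 and 4.51 in LTC lungs, and 0, 31.4 and 21.9 in HLC lungs against 110, 71.5 and 84.8 in LC lungs. TC replicate 3 and HLC replicate 1 were listed at 0 for this gene in all 4 tissues, and TC replicate 2 was at 0 in lung and at 0.125 FPKM in brain. The same numbered libraries were thus at or near 0 in several tissues, while TC replicate 1 reached 54.0 FPKM in lung for the first gene and 104 FPKM for the second.

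**Figure D5:**
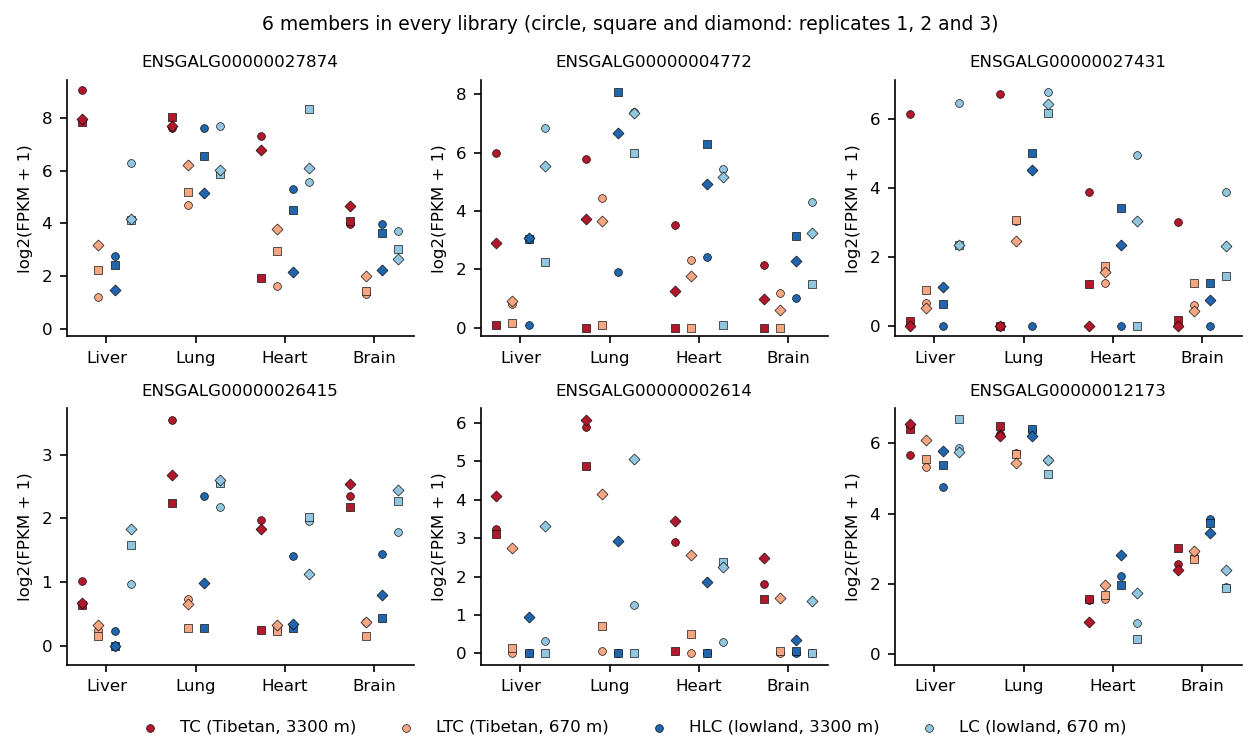
log2(FPKM + 1) of 6 members in all 48 libraries, by tissue and by group from TC to LC, with circles, squares and diamonds for replicates 1, 2 and 3. ENSGALG00000027431 is at 0 in TC replicate 3 in all 4 tissues and at 70.0 FPKM in liver and 104 FPKM in lung in TC replicate 1, whereas ENSGALG00000012173 is higher in HLC than LC in lung, heart and brain means and lower in liver.

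Over the 12 libraries, the deviations of a member from its group means in liver and in lung had a median correlation of 0.275 (89 members), against 0.23 for all 9548 genes shared. With heart it was 0.166 (84 members) against 0.186, or 0.192 against 0.197 over the 10 libraries not in doubt, and with brain 0.119 (79 members) against 0.189. Values above 0.8 were found in 6 members with lung (6.74%, against 3.48% of genes), in 3 with heart (3.57%, against 1.07%, or 5 with 10 libraries, 5.95% against 3.15%) and in 6 with brain (7.59%, against 3.34%). The rule favours genes that vary within groups, so all genes are not a like background for these shares, which are a description. The highest correlations were those of ENSGALG00000026879 in liver and lung (0.970) and of ENSGALG00000002614 in liver and brain (0.964) and in liver and lung (0.954). Next was ENSGALG00000027431 in liver and brain (0.948). ENSGALG00000026879 had 1.93, 4.14 and 3.53 FPKM in TC livers against 5.74, 0.0596 and 0.444 in LTC livers, and 1.35, 3.11 and 1.56 FPKM in TC lungs against 3.72, 0 and 0.362 in LTC lungs. Its LTC replicate 1 was the highest library of all in both tissues.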

How the data were processed

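Total RNA was extracted with TRIzol and sequencing libraries came from an Illumina TruSeq kit. Per the submitters' processing notes TopHat and Cufflinks 2.2.1 were used on galGal4. Annotation release, read filters and options: not given in the sources used here. The deposited values are FPKM for 17108 Ensembl genes in 48 libraries, and column sums lie between 452395 and 896066. FPKM holds no read counts, so absolute depth is unknown and no count model was used. Low values recur in steps, from which the relative depth of the libraries was estimated. It spanned 1.27 times in liver, 1.56 in lung, 1.495 in heart and 1.79 in brain. Only 8.41% to 20.2% of low liver genes lay at the ratio taken as depth, so the estimate is rough.

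Members and gene lists were chosen with earlier results of these data known. Genes reaching 1 FPKM in 3 or more libraries of a tissue were fitted, tissue by tissue, with limma 3.58.1 (R 4.3.3) on log2(FPKM + 1), with 1 mean per group and a variance trend, 2-sided, and p-values were adjusted by the Benjamini-Hochberg method over all genes of the tissue. The pseudocount of 1 understates changes of low genes. Group values are FPKM, and differences are on the log2(FPKM + 1) scale. The fits were tested on simulated data.

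Symbols came from the readable part of a supplement of the study (2805 lines) and cover 1184 genes (6.92%). Of 23 lists of pathway genes, at most 17.6% of a list had an ID and none held a member, so list results are void. Genes named are the 12 largest members, every member past a threshold outside the rule's contrasts, and the 3 on each side of the limit. Others were picked after their values were seen. Replicate numbers are shared by the groups. Same-numbered deviations of TC and LTC in brain correlated between 0.373 and 0.452. In no other pair of groups were all 3 correlations over 0.1, so blocked values are given for that comparison. The block is an effect of each number shared by all groups, not a pairing of TC with LTC. The alternatives were a pseudocount of 0.1, no filter, a filter at a mean of 5 FPKM, quantile normalization, upper quartile scaling, no trend, the replicate block and leaving out each library. Heart without 2 libraries was added after the data were seen.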

Additional observations from a re-analysis of the deposited data

Results flagged for a closer look

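In a few members the altitude difference of Tibetan chickens differed from that of lowland chickens outside liver, by the interaction test. In lung, where 0.509% of all genes passed, these were ENSGALG00000015297, with an interaction of 1.66, and ENSGALG00000026415, with 3.51. Both lung calls were lost in most alternatives (13 and 14 of 19). In brain, where 0.0344% passed, it was ENSGALG00000026415, with 3.32, lost without LC replicate 2. In heart, where 2.79% passed, ENSGALG00000028204 had an interaction of -2.29, opposite in sign to its liver difference. The heart call did not pass without the libraries labelled TC replicate 2 and LC replicate 2. ENSGALG00000026415 passed in 2 tissues, but libraries of the same group and number go together between tissues, so lung and brain are not independent. In both tissues it met the filter on low values mainly through TC and LC, the groups that raise the interaction.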

How the results depend on the processing

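The 14 members past the threshold for the difference between Tibetan and lowland livers became 6 with no filter on low values, 9 with the replicate number as a block and 21 after upper quartile scaling, and lay between 4 and 26 when single libraries were left out. In lung, 7 to 20 members passed between TC and LTC and 5 to 10 between HLC and LC when single libraries were left out. The lung interaction, with 2 members, gave 0 with no filter or with the replicate block, 1 with a pseudocount of 0.1, the stricter filter or no trend, 4 after quantile normalization, and 0 to 4 without single libraries. The difference between Tibetan and lowland lungs gave 1 member after upper quartile scaling or with no trend, against 0. In heart, 10 libraries gave 3 members between TC and LTC, against 0. The heart interaction, with 1 member, gave 3 under the stricter filter, 0 with no filter, quantile normalization, upper quartile scaling, the replicate block or 10 libraries, and 0 to 7 without single libraries. In brain, TC minus LTC gave 1 member, against 3, under the stricter filter or the replicate block and 0 to 4 without single libraries. Brain HLC minus LC gave 0 to 4, and the brain interaction 0 to 2, without single libraries, and that interaction gave 0 under the stricter filter and 2 after upper quartile scaling. Shares of all genes under each setting are not given beside these counts, so the changes are no result about the members. The cause of these changes was not tested. Single calls were recomputed in 924 alternatives, of which 260 fell short of the threshold and 0 reversed. As only calls past the threshold were recomputed, a change of sign was unlikely from the start, and the count of reversals is a description. Only in brain TC minus LTC did replicate numbers meet the condition for pairing, and elsewhere they share only a number. FPKM without counts leaves the precision of low values unknown.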
